A study of Mus musculus with 12 samples.

Results

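The genes described here are 10 genes of the replicative DNA helicase and of origin licensing (Mcm2, Mcm3, Mcm4, Mcm5, Mcm6, Mcm7, Mcm10, Cdc6, Cdt1 and Gins2), among 21203 genes tested in mouse cornea. They were listed by name with the values of these groups already known, so the members had been chosen by the readout itself, and their differences are given as a description. Which members passed in the fit over all genes is given only as a count beside that of all genes, and supports nothing here. RNA from cornea of wild-type mice (labelled WT) was sequenced in 4 groups. The first was a dry eye disease (DED) model given stem cell-derived exosomes intravenously (i.v. exosome corneas, 3 libraries). The second was the same model given the exosomes as an eye drop (eye drop corneas, 3 labelled samples of which 2 are independent libraries). The DED model without treatment and controls without treatment had 3 libraries each. Exosomes are small membrane vesicles that cells release. The labels give no sex, age, time after treatment or way of producing the dry eye, and hold no group that received a vehicle alone, so an effect of the exosomes and one of the way they were given cannot be told apart. Nothing in the labels says whether the libraries of a group came from separate animals, so p-values measure only the spread between these libraries.

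Before a cell copies its DNA, the origin recognition complex, CDC6 and CDT1 load the ring of MCM2 to MCM7 onto origins in G1, a step called licensing. In S phase the loaded ring is joined by CDC45 and the GINS complex, and with MCM10 it becomes an active helicase that unwinds the fork. Most genes of this machinery are classical targets of E2F transcription factors. In the corneal epithelium, renewal depends on dividing basal cells and on stem cells at the limbus, and MCM proteins are widely used as marks of cells that can replicate.

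The promoter sequences are shown because most genes of this machinery are classical E2F targets. Whether E2F factors had a part in the differences below was not tested. Windows from 250 bases before to 50 bases after the annotated start, taken from RefSeq on GRCm38.p6, were found for 8 of the 10 members. The words searched were TTTCCCGC, TTTGGCGC, TTTCGCGC and TTTGCCGC on both strands, and words may overlap. They stand in capitals in the 300-base windows of Mcm3, Mcm5, Mcm6 and Mcm7 and in shorter stretches around the word in Cdc6 and Cdt1, each written 5′ to 3′ along the strand of the gene.
Mcm3, chr1:20820263-20820562, minus strand: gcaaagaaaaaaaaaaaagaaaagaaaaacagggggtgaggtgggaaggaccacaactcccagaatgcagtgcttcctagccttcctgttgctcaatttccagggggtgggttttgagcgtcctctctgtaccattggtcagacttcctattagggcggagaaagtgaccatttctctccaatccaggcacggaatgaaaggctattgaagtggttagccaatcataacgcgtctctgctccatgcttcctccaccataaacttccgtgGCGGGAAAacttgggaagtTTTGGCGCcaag
Mcm5, chr8:75109259-75109558, plus strand: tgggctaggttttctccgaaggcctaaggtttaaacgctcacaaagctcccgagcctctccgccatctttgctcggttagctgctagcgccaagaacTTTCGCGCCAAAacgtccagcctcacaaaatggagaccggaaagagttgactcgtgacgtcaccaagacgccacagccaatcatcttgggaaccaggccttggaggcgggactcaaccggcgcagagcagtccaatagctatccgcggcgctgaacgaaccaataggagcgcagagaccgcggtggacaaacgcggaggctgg
Mcm6, chr1:128359656-128359955, minus strand: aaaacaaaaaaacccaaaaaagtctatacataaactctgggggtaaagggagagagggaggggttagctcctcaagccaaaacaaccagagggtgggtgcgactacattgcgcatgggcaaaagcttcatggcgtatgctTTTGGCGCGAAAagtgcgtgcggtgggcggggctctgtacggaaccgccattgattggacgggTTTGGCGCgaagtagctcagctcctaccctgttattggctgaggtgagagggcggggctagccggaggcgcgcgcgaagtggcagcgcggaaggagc
Mcm7, chr5:138171834-138172133, minus strand: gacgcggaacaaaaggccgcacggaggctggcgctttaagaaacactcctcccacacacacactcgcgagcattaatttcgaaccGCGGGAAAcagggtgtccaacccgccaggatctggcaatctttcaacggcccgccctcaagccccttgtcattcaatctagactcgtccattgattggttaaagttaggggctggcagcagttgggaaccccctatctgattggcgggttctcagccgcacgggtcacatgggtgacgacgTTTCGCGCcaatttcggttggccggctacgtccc
Cdc6, a stretch of chr11:98907901-98908200, plus strand: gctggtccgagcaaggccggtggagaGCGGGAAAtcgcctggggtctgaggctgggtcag
Cdt1, a stretch of chr8:122567765-122568064, plus strand: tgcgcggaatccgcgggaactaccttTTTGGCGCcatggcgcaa

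At least 1 of these words was present in 6 of the 8 members with a window, against 744 of 32851 promoter windows (2.26%) and 557 of 13429 tested genes with a window (4.15%). Mcm6 held 3 words, and Mcm3, Mcm5 and Mcm7 held 2 each, counted in the first of 2 annotated windows of Mcm7. In Mcm5 the words TTTCGCGC and GCGCCAAA began 153 and 149 bases before the start and overlapped. In Mcm6 the words TTTGGCGC and GCGCGAAA overlapped in the same way 110 and 106 bases before the start, with another TTTGGCGC 47 bases before it. Cdc6 and Cdt1 held 1 word each, and the windows of Mcm2 and Mcm10 held no whole word. The Mcm10 window ends with the start of what could be TTTGGCGC, and the base beyond its edge was not searched. The shorter word CCAAT, searched on both strands, was in 6 of 8 members. It was in 37.4% of all windows and in 5629 of 13429 tested genes with a window (41.9%). E2F words were not particular to the members. They were in 7 of 19 (36.8%) other licensing and origin firing genes and 10 of 30 (33.3%) replication fork genes. In the E2F and retinoblastoma list it was 7 of 21 (33.3%), in licensing ubiquitin ligases 2 of 13 (15.4%) and in nucleotide supply 1 of 14 (7.14%). Of the genes of G2 and mitosis, 1 of 25 (4.0%) held an E2F word and 19 of 25 (76.0%) held CCAAT. Of the members whose promoter is not printed, Mcm2 lies at chr6:88883474-88898780, Mcm4 at chr16:15623897-15637400 and Mcm10 at chr2:4989714-5012791, all on the minus strand of GRCm38. The matches describe letters in a window and say nothing about whether a factor bound there.

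Library totals were 8956553 to 9501661 counts in i.v. exosome corneas, 12571461 to 13687074 in eye drop corneas, 10355125 to 14263045 in DED corneas and 10893978 to 12972945 in controls. All 10 members were above the filter on low values in every library, with raw counts of 23 to 1073. Levels below are normalized counts, that is, counts scaled between libraries by size factors (median of ratios). The corneal keratin Krt12 had 264101.7 to 514420.6 normalized counts in the 11 libraries. The summed corneal epithelium markers (10 genes) were 912300 to 1090000 in i.v. exosome, 939700 to 951500 in eye drop, 847500 to 1079000 in DED and 704200 to 1016000 in control corneas. Single genes of that list differed, with log2 differences of -0.704 to 0.975 for i.v. exosome against DED corneas. Krt15 had 80469.1 to 103584.6 in i.v. exosome, 38559.3 to 60066.9 in DED and 48717.8 to 65529.8 in control corneas. Trp63 had 1013.1 to 1219.9 in i.v. exosome, 1013.0 to 1510.6 in DED and 1663.2 to 2304.3 in control corneas. The third i.v. exosome library stood apart from its group: over 11803 genes its median absolute log2 difference from the other 2 was 0.401 and 0.465, against 0.202 between those 2 and 0.162 to 0.306 within the other groups. Lens markers were highest in eye drop library 2 (summed 31670), retina markers in DED library 3 (24960) and skeletal muscle markers in i.v. library 1 (7463), which are tissues of or around the eye.

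MCM2 to MCM7 form the ring itself. Mcm2 had 250.7, 280.1 and 154.7 normalized counts in i.v. exosome corneas, 559.8 and 551.9 in eye drop corneas, 456.8, 371.2 and 421.6 in DED corneas, and 347.7, 466.8 and 535.5 in controls. Every i.v. exosome library lay below every other library, and both eye drop libraries lay above all the others. The log2 difference of Mcm2 was -0.90 (SE 0.22) for i.v. exosome against DED corneas, -0.997 (SE 0.22) for i.v. exosome against control corneas and -1.32 (SE 0.25) for i.v. exosome against eye drop corneas.

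Mcm4, whose product carries part of the ring's ATPase activity together with MCM6 and MCM7, had 248.0, 236.7 and 179.2 normalized counts in i.v. exosome corneas, 438.3 and 517.2 in eye drop corneas, 448.5, 332.5 and 381.4 in DED corneas, and 346.2, 337.8 and 406.8 in controls. The i.v. exosome libraries were again below all others, and the DED libraries overlapped both the eye drop and the control libraries. Its log2 difference was -0.81 (SE 0.19) for i.v. exosome against DED corneas, -0.72 (SE 0.19) against controls and -1.12 (SE 0.21) against eye drop corneas. Mcm7 had 391.1, 434.2 and 309.3 in i.v. exosome corneas, 546.3 and 680.0 in eye drop corneas, 745.5, 581.1 and 622.3 in DED corneas, and 415.7, 525.5 and 617.6 in controls, all in normalized counts. For this gene the i.v. exosome libraries lay below those of the eye drop and DED corneas but overlapped the controls, with log2 differences of -0.79 (SE 0.19) against DED corneas and -0.45 (SE 0.19) against controls.

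For the subunits Mcm3, Mcm5 and Mcm6 the mean of the i.v. exosome corneas was again the lowest of the 4 groups, with wider overlap. Mcm3 had 279.5, 296.9 and 182.1 normalized counts in i.v. exosome corneas, 472.5 and 508.9 in eye drop corneas, 467.4, 409.8 and 403.3 in DED corneas, and 290.0, 424.5 and 479.5 in controls. The first control library lay inside the i.v. exosome range, and both eye drop libraries lay above the DED libraries. Mcm5, whose product sits with MCM2 at the gate through which DNA enters the ring, had 336.0, 409.0 and 255.8 normalized counts in i.v. exosome corneas, 565.2 and 689.9 in eye drop corneas, 659.1, 506.0 and 589.2 in DED corneas, and 335.8, 607.3 and 605.5 in controls. The i.v. exosome libraries lay below the DED and eye drop libraries and overlapped the first control library alone. The first control library was the lowest of its group for Mcm3, Mcm5, Mcm6 and Mcm7 as well as for Mcm2, and it also had the lowest corneal epithelium marker sum of all libraries. Mcm6 had 461.9, 540.6 and 300.7 normalized counts in i.v. exosome corneas, 676.8 and 886.5 in eye drop corneas, 723.5, 507.1 and 659.9 in DED corneas, and 486.8, 583.3 and 730.5 in controls. The second i.v. exosome library lay above the lowest DED and the lowest control library, so these groups overlapped. The log2 differences of i.v. exosome against DED corneas were -0.78 (SE 0.22) for Mcm3, -0.83 (SE 0.23) for Mcm5 and -0.56 (SE 0.23) for Mcm6. Against controls they were -0.65 (SE 0.22), -0.60 (SE 0.23) and -0.49 (SE 0.23), and against eye drop corneas -0.98 (SE 0.24), -0.93 (SE 0.26) and -0.88 (SE 0.25), for the same 3 genes in that order.

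**Figure D1:**
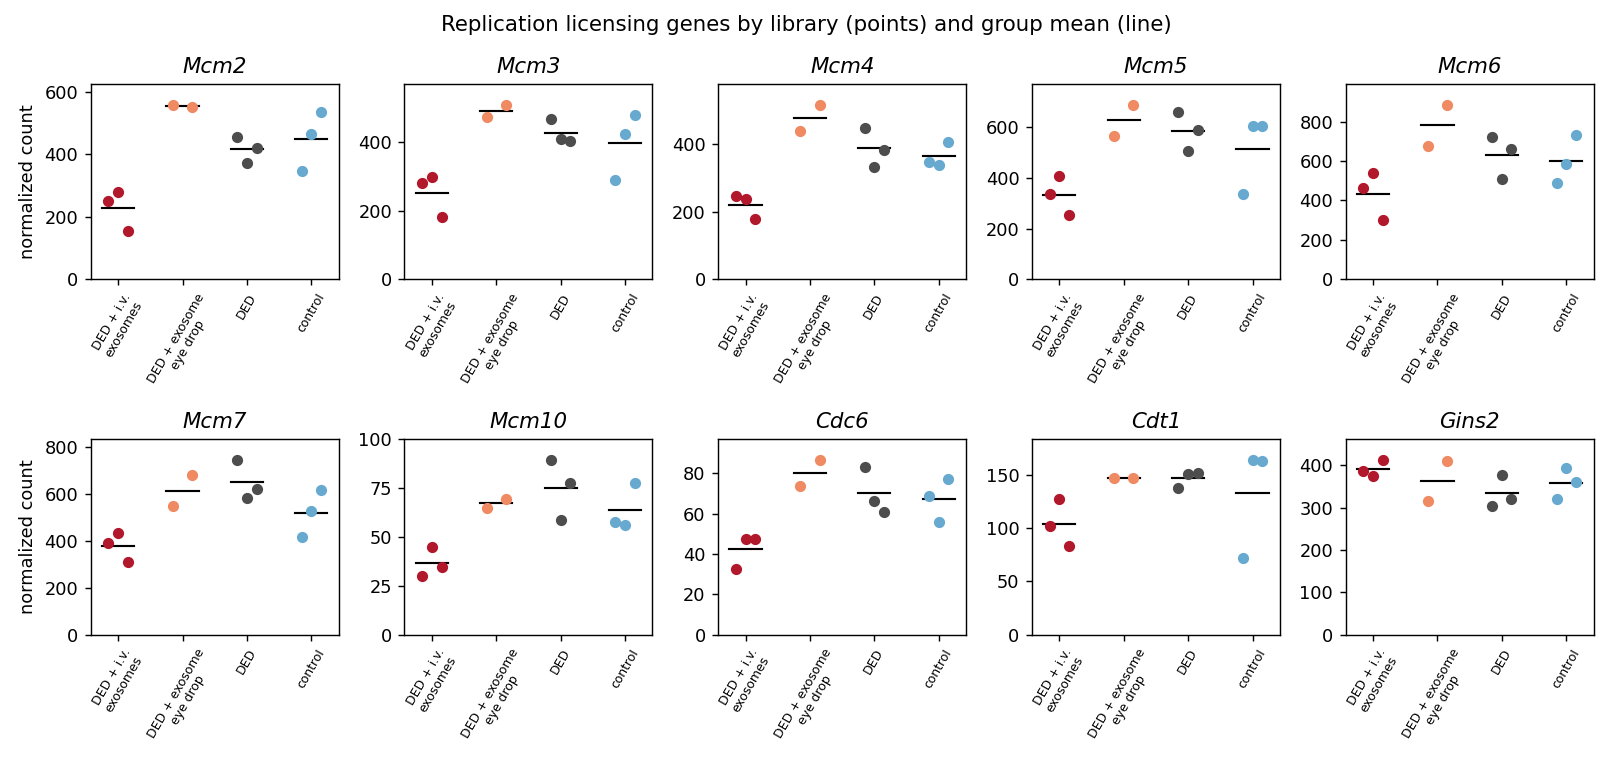
Normalized counts (vertical axes, from 0) of each of the 10 genes in every library (points), with the group mean as a line, for DED corneas with i.v. exosomes, DED corneas with the exosome eye drop, DED corneas and controls. The i.v. exosome points sit lowest for Mcm2, Mcm4, Mcm10 and Cdc6, and Gins2 has a different pattern, with 375.4 to 413.4 in i.v. exosome corneas and 304.6 to 377.8 in DED corneas.

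Summed over the 6 subunits, i.v. exosome corneas had 1967.2, 2197.6 and 1381.9 normalized counts, eye drop corneas 3259.1 and 3834.4, DED corneas 3500.9, 2707.6 and 3077.6, and controls 2222.2, 2945.3 and 3375.4. All 3 i.v. exosome libraries lay under the lowest control library. Counted without size factors, as counts per 1e+06 of the library total, the sum was 161.1, 165.1 and 106.7 in i.v. exosome corneas, 288.0 and 339.1 in eye drop corneas, 324.0, 236.7 and 288.6 in DED corneas and 231.6, 280.9 and 329.3 in controls. The group means had the same order on both scales, with i.v. exosome corneas lowest and eye drop corneas highest, while some single libraries of the other 3 groups changed places. In RNA from whole tissue, fewer dividing cells and less of these RNAs per cell cannot be told apart.

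CDC6 and CDT1 are the loaders of the ring. Cdc6 had 32.8, 47.6 and 47.7 normalized counts in i.v. exosome corneas, 73.8 and 86.8 in eye drop corneas, 83.3, 66.3 and 61.1 in DED corneas, and 68.8, 55.8 and 77.4 in controls. No i.v. exosome library reached the lowest of the other 3 groups, and the log2 difference from DED corneas was -0.71 (SE 0.26). Cdt1 had 102.4, 127.5 and 83.8 in i.v. exosome corneas, 147.6 and 147.1 in eye drop corneas, 137.9, 151.3 and 151.9 in DED corneas, and 72.5, 164.6 and 163.3 in controls. Cdt1 lay below DED and eye drop corneas in all 3 i.v. exosome libraries, but the first control library was lower still, and its log2 difference was -0.51 (SE 0.28) from DED corneas and -0.28 (SE 0.28) from controls.

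Mcm10 and Gins2 act when the loaded ring is turned into a running helicase, and they parted. Mcm10 had 30.2, 44.8 and 34.7 normalized counts in i.v. exosome corneas, 64.8 and 69.4 in eye drop corneas, 89.4, 58.5 and 77.7 in DED corneas, and 57.7, 55.8 and 77.4 in controls. The i.v. exosome libraries were the lowest 3 of the 11, with a log2 difference of -1.02 (SE 0.27) from DED corneas, the largest in size among the members in that comparison. Gins2, a subunit of the GINS complex, had 385.8, 375.4 and 413.4 in i.v. exosome corneas, 316.8 and 410.6 in eye drop corneas, 304.6, 377.8 and 319.5 in DED corneas, and 321.1, 393.7 and 361.0 in controls. Its groups overlapped, and the log2 difference was 0.23 (SE 0.17) for i.v. exosome against DED corneas and 0.13 (SE 0.17) against controls.

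The Gins2 counts are uncertain, because on GRCm38 (chr8:120578633-120589304, minus strand) its exons share 2758 bases with those of Gse1 on the opposite strand, and the counting is not stated to use strand. Gse1 itself had 195.5, 145.7 and 435.1 normalized counts in i.v. exosome corneas and 273.5, 272.9 and 321.2 in DED corneas. Mcm7 (chr5:138164583-138172422, minus strand) likewise shares 321 exonic bases with Ap4m1 and 64 with Cops6 on the opposite strand, and Mir25 and Mir93 lie within it on its own strand. How far such reads enter the values was not tested. The other 3 GINS subunits, added after their values were seen, did not show 1 direction: the log2 difference of i.v. exosome against DED corneas was -0.53 (SE 0.33) for Gins1, -0.64 (SE 0.36) for Gins3 and 0.36 (SE 0.20) for Gins4, none past the threshold.

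In the fit over all 21203 genes, 1 of the 10 members (Mcm4) had an adjusted p under 0.05 (limma, Benjamini-Hochberg) between i.v. exosome and DED corneas, where 1.45% of all genes were called and 0.49% of all genes were called lower. Between i.v. exosome and control corneas it was 2 of 10 (Mcm2 and Mcm4), where 11.3% of all genes were called and 4.68% of all genes were called lower. None of the 10 was called between i.v. exosome and eye drop corneas, where no gene was (0.0%), although 8 members had an unadjusted p under 0.05, as did 1953 of all genes. No member was called in DED against control corneas (1.25% of all genes called), in eye drop against DED corneas (0.193%) or in eye drop against control corneas (0.00472%), and none of the 10 had an unadjusted p under 0.05 there. Since the members were selected on these contrasts, nothing is read from these counts.

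The member medians describe the size: -0.783 in log2 for i.v. exosome against DED corneas, beside a median of -0.042 over all genes tested, -0.628 against controls (all genes -0.007) and -0.893 against eye drop corneas (all genes -0.016). These 3 comparisons share the i.v. exosome libraries. Every i.v. exosome library lay below every DED library for 8 of 10 members, against 8.88% of all genes, below every control library for 4 of 10, against 13.2%, and below every eye drop library for 9 of 10, against 12.7%. Without the third i.v. exosome library the medians were -0.644, -0.425 and -0.756, in the same order of comparisons. The log2 difference of Mcm4 against DED corneas was -0.912 to -0.662 with 1 library left out at a time. It stayed past the threshold without DED library 2, control library 1 or i.v. library 3, and missed it without any other single library. Against controls, Mcm2 and Mcm4 both missed it without control library 3, at -0.862 and -0.642, and Mcm4 without control library 1, at -0.757. Without the 3 libraries highest in lens, retina or muscle markers no member was called, although Mcm4 was then at -0.909 against DED corneas and Mcm2 at -1.09 against controls, both larger in size than with all libraries. Without control library 1, or without i.v. library 3, 4 members were called against DED corneas. Without i.v. library 3, 2 were called against eye drop corneas (Mcm2 and Mcm4). The number called over all genes also changed widely between the fits with libraries left out, as given in the closing section. Nothing about the members is therefore read from their counts in these fits.

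**Figure D2:**
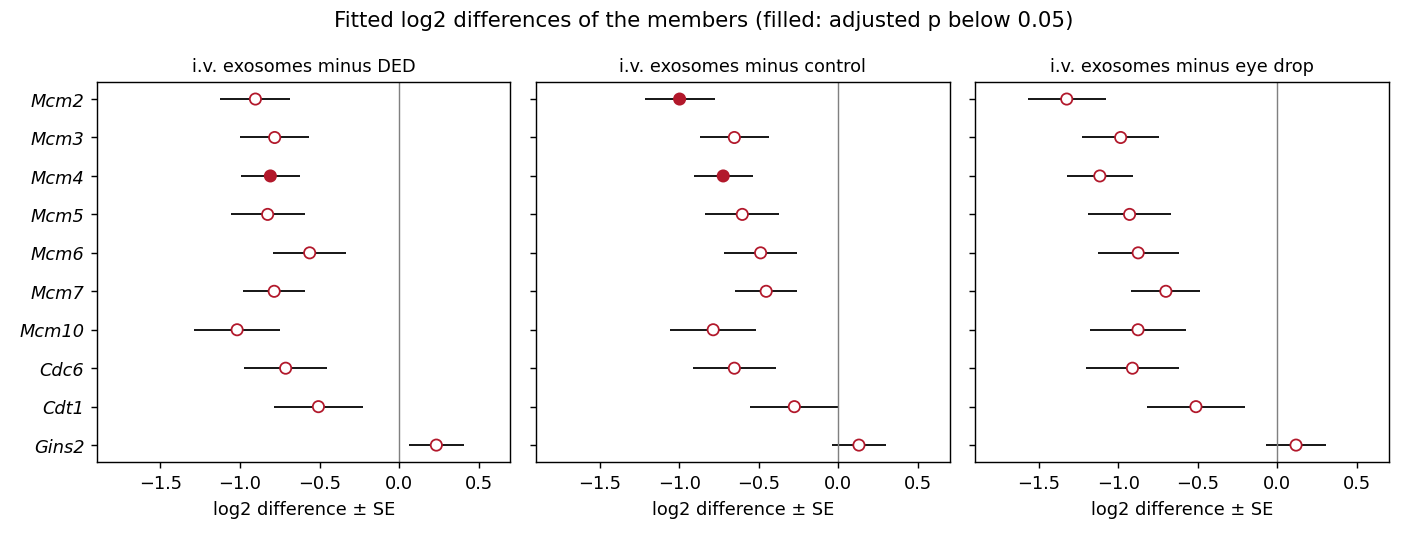
Fitted log2 differences (horizontal axis) with their SE for i.v. exosome corneas minus DED, control and eye drop corneas, filled where the adjusted p was below 0.05. The values of 9 genes lie below 0 in all 3 panels, between -1.32 and -0.28, and Gins2 lies between 0.12 and 0.23.

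The comparisons without the i.v. exosome group gave smaller differences, none of them past the threshold. For DED against control corneas the log2 differences ran from -0.10 (Gins2, SE 0.17) to 0.33 (Mcm7, SE 0.19), with a median of 0.107 beside 0.031 for all genes. For eye drop against DED corneas they ran from -0.14 (Mcm10, SE 0.30) to 0.42 (Mcm2, SE 0.25), with a median of 0.158 beside -0.026. For eye drop against control corneas they ran from 0.01 (Gins2) to 0.39, with a median of 0.292 beside 0.014. With these standard errors, changes of this size in single genes were not detectable with 2 or 3 libraries a group.

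Levels of different subunits were compared per kilobase of the longest annotated transcript, on GRCm38. Mcm7 had the largest share of the 6-subunit sum in each group mean, 23.9 ± 1.61% in i.v. exosome, 20.0 ± 0.873% in eye drop (n = 2), 24.1 ± 0.674% in DED and 21.1 ± 0.58% in control corneas (SD, n = 3 for the others). Mcm4 had the smallest, with means of 11.6% to 12.9%. With coding length in place of transcript length, Mcm6 came close to Mcm7 in i.v. exosome corneas (22.5 ± 1.43% against 22.8 ± 1.57%). In eye drop corneas Mcm6 came above Mcm7 (21.4 ± 1.55% against 19.2 ± 0.703%), and in controls the means were 20.5% and 20.3%. In DED corneas Mcm7 stayed highest (23.2 ± 0.723%, Mcm6 19.6 ± 1.36%). Mcm2 (10.7 ± 0.816%) came below Mcm4 (11.1 ± 1.08%) in i.v. exosome corneas alone. In some groups the order at the top or at the bottom thus depends on the length used.

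The share of Mcm2 was 12.4 ± 0.961% (SD, n = 3) in i.v. exosome, 14.7% and 17.5% in eye drop, 13.2% to 13.9% in DED and 15.9% to 16.1% in control corneas. DED and control libraries did not overlap in it, nor in the share of Mcm7, which was 23.3% to 24.5% in DED and 20.5% to 21.7% in control corneas. The direction was the same by coding length, where Mcm2 made up 11.4% to 12.0% in DED and 13.9% to 14.0% in control corneas. By either length, the shares of Mcm3, Mcm4, Mcm5 and Mcm6 overlapped between DED and control libraries. How often such shares part between 3 and 3 libraries was not tested. The shares are not independent of each other, and the overlap of Mcm7 with other genes enters them. Of those genes, Cops6 had 1854.8 to 2373.5 normalized counts in DED and 1125.2 to 1586.2 in control corneas. Ap4m1 had 299.4 to 356.1 in DED and 306.9 to 375.1 in control corneas. Per kilobase, Mcm10 and Cdc6 were the lowest members, with 7.51 ± 1.54 and 9.26 ± 1.86 normalized counts per kilobase in i.v. exosome corneas and 15.5 ± 3.2 and 15.2 ± 2.52 in DED corneas (SD, n = 3).

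**Figure D3:**
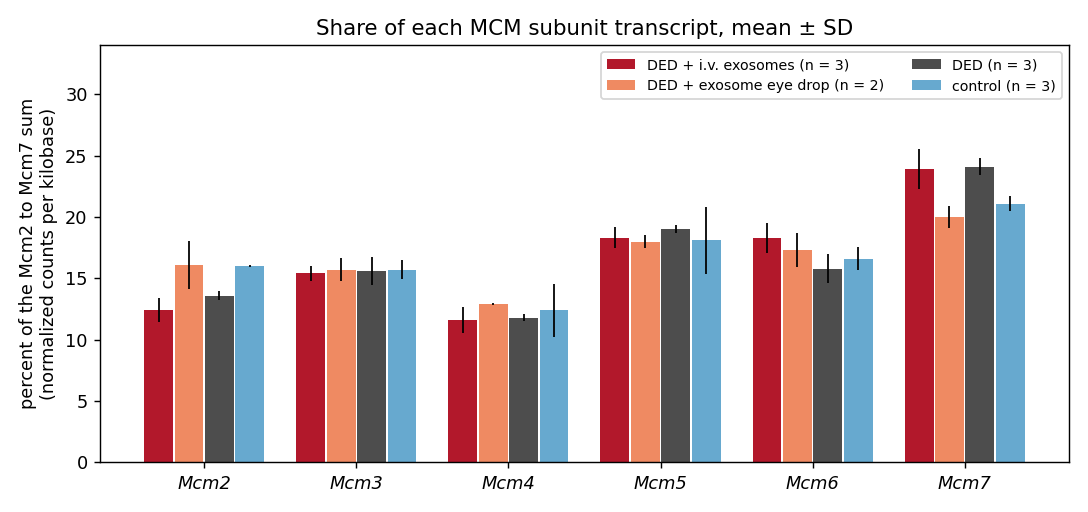
Share of each subunit transcript in the Mcm2 to Mcm7 sum, from normalized counts per kilobase of transcript (bars start at 0, mean ± SD, n in the legend), for the 4 groups. Mcm7 is highest in each group, and Mcm2 is near 16.0% in control and 13.6% in DED corneas.

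The members varied together across libraries, as a description over 11 libraries that share their group structure and depth. The 15 pairs among Mcm2 to Mcm7 had Pearson correlations of log2 level of 0.871 to 0.97 (median 0.925). The 21 pairs that include Mcm10, Cdc6 or Cdt1 had 0.4 to 0.896 (median 0.775), and Gins2 had -0.596 to -0.034 with the 9 others (median -0.401).

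The genes outside the list most like the mean of the standardized members, by Pearson correlation over the 11 libraries, were Uhrf1 (0.98), Glul (0.965), Mthfd1 (0.95), Gm14150 (0.937), Pa2g4 (0.935), Hspa9 (0.931), Gm3435 (0.929), Pola2 (0.919), Atic (0.918) and Lig1 (0.916). Uhrf1, which brings the maintenance methyltransferase to hemimethylated DNA behind the fork, had 190.3, 212.9 and 135.9 normalized counts in i.v. exosome corneas, 393.3 and 423.8 in eye drop corneas, 437.9, 338.0 and 353.5 in DED corneas, and 247.1, 360.9 and 406.8 in controls. The i.v. exosome libraries were below all others. Because these genes were picked for likeness to the members over the same libraries, low values in that group follow in part from the choice. Mthfd1 and Atic encode enzymes of folate metabolism and purine synthesis, with log2 differences of -0.77 (SE 0.16) and -0.80 (SE 0.21) for i.v. exosome against DED corneas. Pola2 (a subunit of DNA polymerase alpha) and Lig1 (the ligase that joins Okazaki fragments) had -0.72 (SE 0.26) and -1.01 (SE 0.21). Glul had -0.399 (SE 0.18), Hspa9 -0.476 (SE 0.173) and Pa2g4 -0.561 (SE 0.175). Gm14150 and Gm3435, at 1.4 to 27.1 normalized counts, had -0.966 (SE 0.376) and -1.492 (SE 0.565).

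The counts of called genes in the lists below stand beside the shares over all genes. In i.v. exosome against DED corneas 1.45% of all genes were called and 0.49% called lower, and against controls 11.3% and 4.68%. Outside the members, the licensing and origin firing list (25 genes) showed 1 gene that fell and none that rose in i.v. exosome against DED corneas, with a list median of -0.264. The gene was Topbp1, which brings the firing factors together at licensed origins. It had 152.2, 186.3 and 176.3 normalized counts in i.v. exosome corneas and 425.8, 280.6 and 298.5 in DED corneas, without overlap (log2 difference -0.94, SE 0.19, limma adjusted p = 0.023). Against controls 3 of the 25 fell and none rose, where 11.3% of all genes were called and 4.68% called lower. The 3 were Topbp1 (-0.99, limma adjusted p = 0.00739), Ticrr, which works with Topbp1 in firing (-1.38, adjusted p = 0.0194), and the helicase Recql4 (-0.89, adjusted p = 0.0477). Genes whose values are given whatever they were included Cdc45, which joins the active helicase, at -0.94 (SE 0.28, adjusted p = 0.112), Orc1, a subunit of the origin recognition complex, at -0.36 (SE 0.40), and Gmnn, which encodes the CDT1 inhibitor geminin, at -0.22 (SE 0.30), all for i.v. exosome against DED corneas and none past the threshold.

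At the fork, 6 of 34 genes fell and none rose in i.v. exosome against DED corneas (list median -0.417). Among them were Uhrf1 (-1.08, SE 0.22, limma adjusted p = 0.0197), Lig1 (-1.01, SE 0.21, adjusted p = 0.0223), the nuclease and helicase Dna2 (-1.73, SE 0.38, adjusted p = 0.0321) and the histone chaperone Asf1b (-0.99, SE 0.22, adjusted p = 0.0372). Against controls the list was mixed, with 4 that fell, among them the maintenance methyltransferase Dnmt1 (-0.98, SE 0.18, adjusted p = 0.00515), and 3 that rose, Chaf1a (0.64), Rpa3 (0.76) and Rnaseh2a (0.61). Pcna, the sliding clamp, had 1349.1, 1792.8 and 1089.9 normalized counts in i.v. exosome corneas and 1955.4, 1452.7 and 1645.3 in DED corneas, which overlap (-0.28, SE 0.21, adjusted p = 0.569).

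Of 15 genes of nucleotide supply, 5 fell and none rose in i.v. exosome against DED corneas, and all 15 differences were negative (median -0.458). The ribonucleotide reductase subunits Rrm2 (-1.11, SE 0.21, limma adjusted p = 0.016) and Rrm1 (-0.74, SE 0.17, adjusted p = 0.0411), the pyrimidine synthesis gene Cad (-1.05, SE 0.22, adjusted p = 0.023), the CTP synthase Ctps (-1.07, SE 0.25, adjusted p = 0.0418) and thymidine kinase Tk1 (-0.78, SE 0.19, adjusted p = 0.0497) made up the 5. Against controls 1 fell, Cad (-1.17, SE 0.22, adjusted p = 0.00575).

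In the E2F and retinoblastoma list (28 genes, median -0.072 for i.v. exosome against DED corneas), 1 gene rose and 1 fell. Ccnd2, a D-type cyclin, had 780.8, 844.6 and 1134.7 normalized counts in i.v. exosome corneas, 1086.4 and 1033.6 in eye drop corneas, 316.7, 369.0 and 383.2 in DED corneas, and 1260.5, 929.8 and 998.2 in controls. DED corneas alone were low, and all other libraries lay above them. Ccnd2 rose in i.v. exosome against DED corneas (1.35, SE 0.18, limma adjusted p = 0.00127) and in eye drop against DED corneas (1.57, SE 0.20, adjusted p = 0.0026), and fell in DED against control corneas (-1.57, SE 0.18, adjusted p = 0.000481). It was the only gene of the 6 pathway lists called in the comparisons of DED with controls and of the eye drop with DED, so its order across groups was not that of the helicase genes. Myc fell in i.v. exosome against DED corneas (-0.88, SE 0.19, adjusted p = 0.0261), E2f1 was at -0.61 (SE 0.34, adjusted p = 0.422) and Ccnd1 at 0.02 (SE 0.15, adjusted p = 0.979). Against controls 2 of the list rose (Cdkn2b, 0.81, and Cdkn1c, 1.10) and 3 fell (E2f7, -1.32; Myc, -0.90; E2f3, -1.06).

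Of the 13 genes of the ubiquitin ligases that control licensing, none passed in i.v. exosome against DED corneas with limma (median -0.16). There 2 had an unadjusted p under 0.05, as did 3276 of all 21203 genes. Against controls 1 of the 13 was called, where 11.3% of all genes were. It was Rbx1, the common RING subunit, which rose (0.69, SE 0.19, limma adjusted p = 0.0313).

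The 30 genes of G2 and mitosis had 8 that fell and none that rose in i.v. exosome against DED corneas (median -0.881), and 15 that fell and none that rose against controls (median -0.805). Top2a, the topoisomerase of mitotic chromosomes, had 308.4, 379.6 and 260.2 normalized counts in i.v. exosome corneas and 801.5, 550.1 and 669.5 in DED corneas, without overlap (-1.09, SE 0.20, limma adjusted p = 0.0125). Foxm1, the transcription factor of G2 genes, was at -1.54 (SE 0.31, adjusted p = 0.0197) and the kinetochore gene Ndc80 at -1.27 (SE 0.25, adjusted p = 0.0189). Mki67, the gene of the proliferation mark Ki-67, was at -0.68 (SE 0.28, adjusted p = 0.257) against DED corneas, and it fell against controls (-1.02, SE 0.28, adjusted p = 0.0328), where control library 1 alone had 932.8.

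The number of calls in the pathway lists depended on single libraries, while the differences of the called genes did not change sign in any of the 22 settings tried. Over all genes, 1.45% were called in i.v. exosome against DED corneas and 11.3% against controls, with all libraries in the fit. With libraries left out, the number called over all genes changed too, as given in the closing section. The counts below are therefore not read as a property of the lists. Of 145 pathway genes tested, 22 were called in i.v. exosome against DED corneas, and 1 (Ccnd2) was left without DED library 1, without DED library 3, or without the 3 libraries highest in lens, retina or muscle markers, and 4 without i.v. library 1. Against controls 32 were called, against 4 without control library 1, 12 without control library 3, 14 without i.v. library 1 and 0 without the 3 tissue-marker libraries. Over the 22 settings the log2 difference of Uhrf1 from DED corneas was -1.302 to -0.888, that of Top2a -1.314 to -0.956 and that of Ndc80 -1.493 to -0.992, and each was called in 17 of them.

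**Figure D4:**
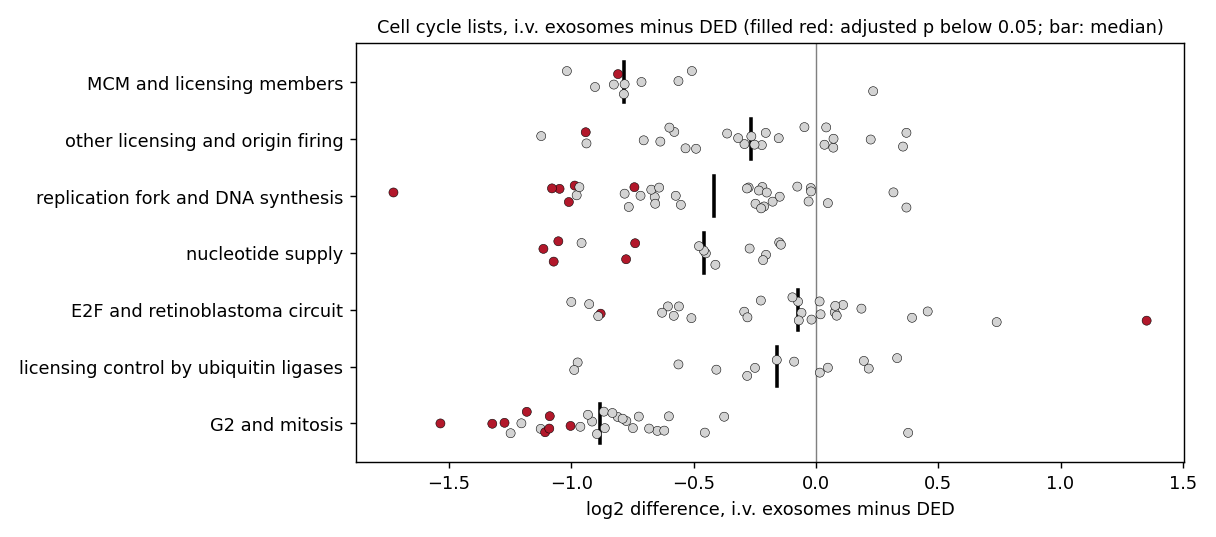
Log2 differences of i.v. exosome minus DED corneas (horizontal axis) for each gene (points) of the members and the 6 pathway lists (rows), red where the adjusted p was below 0.05, with the list median as a bar. Medians are -0.783 for the members and -0.881 for G2 and mitosis, and the rightmost point is Ccnd2 at 1.35.

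The licensing and mitotic genes did not keep the same distance in all groups. The median log2 level of the 10 members minus that of the 30 mitotic genes was 1.372, 0.953 and 0.904 in i.v. exosome corneas, 1.77 and 1.621 in eye drop corneas, 0.865, 1.047 and 0.787 in DED corneas, and 0.872, 1.367 and 1.2 in controls. The 2 eye drop libraries had the largest distances of the 11. In eye drop against DED corneas, 29 of the 30 mitotic genes were lower (median -0.384, beside -0.026 over all genes). None passed the threshold with limma, and 6 had an unadjusted p under 0.05, as did 1494 of all 21203 genes. Of the 10 members, 8 were higher. Lens markers were at 31670 in eye drop library 2 and 2488 in eye drop library 1, and their part in the distance, which rests on 2 libraries, was not tested.

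Keratins on the list of conjunctiva and goblet cell markers moved with the i.v. exosome group. The summed level of the list (6 genes tested), most of it Krt13 and Krt4, was 83500 to 104400 normalized counts in i.v. exosome corneas, 57250 to 62380 in eye drop corneas, 42730 to 55230 in DED corneas and 40970 to 53600 in controls. In i.v. exosome against DED corneas 3 of the 6 rose: Krt4 (1.22, limma adjusted p = 0.0111), Krt13 (0.91, adjusted p = 0.0152) and Krt8 (1.33, adjusted p = 0.0333). Against controls 3 rose: Krt13 (0.93, adjusted p = 0.00581), Krt4 (0.99, adjusted p = 0.0117) and Krt19 (0.77, adjusted p = 0.0315). Muc5ac, the goblet cell mucin, was at 17.1 in i.v. library 1 and at 0 in the other 2 i.v. exosome libraries. The goblet cell genes on the list did not pass: Agr2 was at 61.7, 40.6 and 36.1 in i.v. exosome and 57.6, 54.1 and 50.6 in DED corneas, and Spdef at 2.6, 7.0 and 10.1 in i.v. exosome and 7.6, 6.6 and 14.0 in DED corneas, with overlap in both. Skeletal muscle markers (14 genes) summed to 7463, 4296 and 211 in i.v. exosome corneas, against 147.7 to 921.7 in DED corneas and 272.4 to 445.9 in controls. The part of the conjunctival and muscle markers in the result was not tested. Immune markers (11 genes tested) summed to 1163 to 1607 in i.v. exosome and 1174 to 1665 in DED corneas.

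Transcript length went with the log2 difference in comparisons with the i.v. exosome group, but not only there. The rank correlation of length with that difference was -0.189 for i.v. exosome against DED corneas, -0.232 against controls and -0.17 against eye drop corneas. It was -0.142 for DED against control and -0.166 for eye drop against control corneas, but -0.015 for eye drop against DED corneas. Each value covers 21041 genes, and single genes do not count as separate replicates. The members had transcripts of 2189 to 4867 bases. The 8507 genes in that range had a median of -0.079 for i.v. exosome against DED and against control corneas. After a correction for transcript length per library, chosen after seeing the data, the member medians were -0.727 against DED corneas, -0.479 against controls and -0.782 against eye drop corneas, and the members called were the same.

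**Figure D5:**
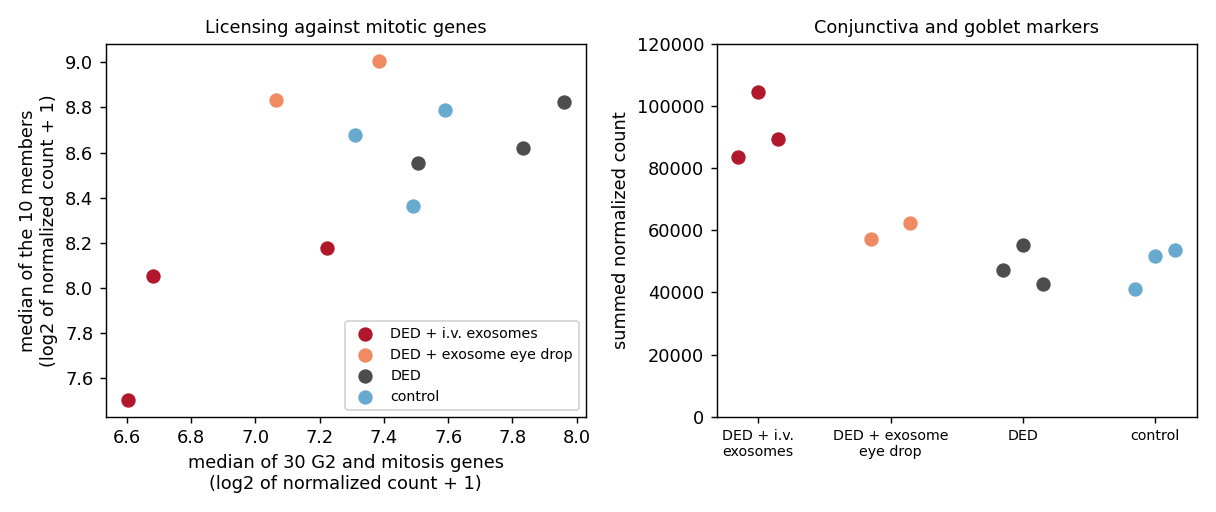
Left, median log2 level of the 10 members (vertical) against that of 30 G2 and mitosis genes (horizontal), 1 point per library. The 2 eye drop libraries lie highest, with distances of 1.77 and 1.621, and the i.v. exosome libraries lowest. Right, summed normalized count of conjunctiva and goblet markers by library, 83500 to 104400 in i.v. exosome corneas and 42730 to 55230 in DED corneas.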

How the data were processed

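RNA-seq of cornea was deposited as 1 table of 28548 lines by gene symbol. In the authors' deposited table the values are log2 of a count plus 1: for 11 columns, 99.9748% of values were whole on the count scale within 0.01. The third eye drop column equalled the mean of the other 2 on all 28548 lines and was left out. Counts were recovered by rounding, and 19 lines (10 not whole, 9 named by dates) were left out, at most 0.0495% of counts. The genome build is mm9 per the submitters' processing notes; which aligner, counter and annotation were used is not given in the sources used here. Per the labels' protocols, libraries were made with a NEBNext Ultra kit from total RNA.

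Counts were divided by median-of-ratios size factors, and a gene was kept where 3 or more libraries reached a normalized count of 1. Values of log2(normalized count + 1) entered limma 3.58.1 (R 4.3.3; trend, robust, 4 group means, 11 libraries, residual degrees of freedom 7, median prior 9.59). Fold changes are on that scale, which understates changes of low genes. P-values are two-sided, adjusted by Benjamini-Hochberg over 21203 genes within each of 6 comparisons, threshold 0.05. Because the deposited unit was log2, this test and not a count model was used. The procedure was also run on simulated counts. These had the same dispersion for all genes and no library set apart from its group, unlike these data, so nothing is read from that run. Size factors were computed over 15813 genes. Summaries used Python 3.11.15, pandas 2.3.3, numpy 2.4.6 and matplotlib 3.10.9.

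Members and lists were chosen with earlier results of these data known. Named were all members, up to 4 genes of each other list with the smallest p in a described comparison, 9 fixed genes, and the 10 genes most like the members; genes of counts of 5 or fewer outside this rule were named after their values were seen. Transcript lengths and positions came from GENCODE M21 on GRCm38, which is not the authors' build, so positions are those of the later build. Same-numbered libraries were not paired by the labels. Alternatives were 11 planned and 1 added: scaling, pseudocount, filter, spread estimate, groups in the fit, the third eye drop column, replicate block, single libraries or tissue-marker libraries left out, and transcript length.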

Additional observations from a re-analysis of the deposited data

How the results depend on the processing

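The log2 differences of the 9 members other than Gins2 stayed below 0 in all 22 settings tried in the 3 i.v. exosome comparisons, while those of Gins2 turned to -0.212 (against controls) and -0.063 (against eye drop corneas) with library totals and to -0.071 against eye drop corneas without eye drop library 1. With library totals the median of all genes shifted to -0.248, -0.308 and -0.172 for i.v. exosome against DED, control and eye drop corneas, and the members stood -0.76, -0.659 and -0.898 from it, beside -0.741, -0.621 and -0.877 as reported. The member median against controls was then -0.967 (reported -0.628), and that of DED against control corneas turned to -0.01, and to -0.07 without control library 1 (reported 0.107). The share of calls that were higher was 66.2% against DED and 58.8% against control corneas, and with library totals 22.4% and 14.2%; 75th percentile scaling gave 72.2% against controls, and for DED against control corneas the shares were 58.9%, 41.1% and 69.2% (as reported, totals, percentile). Members called against DED corneas (reported 1) were 6 with library totals, 2 with a filter of 10, 4 with the third eye drop column added, and 0 with no filter, without the trend, with only the 2 groups, and without the 3 libraries with most lens, retina or muscle markers (the tissue-marker libraries); against controls (reported 2) they were 8 with library totals, 4 with the third column, 1 with only the 2 groups, and 0 without the trend or without the tissue-marker libraries; against eye drop corneas (reported 0) 2 with the third column. Leaving out 1 library gave 0 to 4 against DED, 0 to 2 against control and 0 to 2 against eye drop corneas, the last 2 being Mcm2 and Mcm4 without i.v. library 3. Other pathway genes called were 22 against DED and 32 against control corneas as reported, 46 and 76 with library totals, 1 and 9 without the trend, 1 and 17 with only the 2 groups, 1 and 0 without the tissue-marker libraries, and 1 to 28 and 4 to 41 with 1 library left out. Ccnd2 was called in 22 of 22 settings for i.v. exosome against DED and for DED against control corneas, and in 18 for eye drop against DED. Pathway genes called in DED against control corneas (reported 1) were 2 with only the 2 groups or the third column and 1 to 6 with 1 library left out; in eye drop against DED corneas (reported 1) 0 without the trend or the tissue-marker libraries and 0 to 1 with 1 left out; in i.v. exosome against eye drop corneas (reported 0) 0 to 7 with 1 left out. Over all genes, i.v. exosome against DED corneas gave 308 calls as reported, 586 with library totals, 65 without the trend, 72 with only the 2 groups, 605 with the third column, 46 without the tissue-marker libraries and 66 to 1609 with 1 library left out. Against controls the 2405 calls were 4579, 370, 1262, 3429, 188 and 250 to 4844 in the same order of settings, and 1468 after the length correction. For DED against control corneas (265) there were 60 without the trend, 662 with only the 2 groups, 594 with the third column, 63 without the tissue-marker libraries and 51 to 1223 with 1 left out. For eye drop against DED corneas (41) there were 6 without the trend, 115 with the third column, 0 without the tissue-marker libraries and 4 to 81 with 1 left out. For eye drop against control corneas (1) there were 20 with library totals, 12 with the 75th percentile, 22 with no filter, 207 with only the 2 groups, 309 with the third column and 0 to 375 with 1 left out. For i.v. exosome against eye drop corneas (0) there were 1 without the trend, 2 with only the 2 groups, 7 with the third column and 0 to 633 with 1 left out. The cause was not tested. Same-numbered libraries had correlations of deviations from group means of -0.257 to 0.443, with 3 of 15 above 0.1. Libraries of different number had -0.577 to 0.391, with 8 of 30 above 0.1. With 2 or 3 libraries a group, these values cannot decide whether the numbers pair the libraries. A fit with the replicate block gave member medians of -0.783, -0.628 and -0.923 against DED, control and eye drop corneas with 1, 2 and 0 members called, and 26 genes in place of 41 for eye drop against DED.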
